A study of Mus musculus with 12 samples.

Results

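The 10 genes described here encode proteases that cut the extracellular matrix and cell-surface proteins, and the inhibitors of those proteases: Mmp8, Mmp9, Mmp12, Mmp13, Mmp14, Mmp19, Adam8, Adam17, Timp1 and Timp2. They were taken by gene symbol from tables of 55335 genes, each symbol matched 1 gene in all 12 libraries, and all 10 were among the 14008 genes that passed the filter on low counts. RNA was sequenced from mouse bone marrow-derived dendritic cells (BMDCs), grown from C57BL/6 bone marrow for 6 days with the growth factor GM-CSF and selected for the surface integrin CD11c, in 4 groups of 3 libraries. All 4 groups carried Rosa26-CreER, a Cre recombinase that acts once 4-hydroxytamoxifen is added. WT and WTL cells had unaltered Ctcf alleles (CreER;CTCF wt/wt), and KO and KOL cells had loxP-flanked ones (CreER;CTCF fl/fl), so that KO cells lose the chromatin-organising protein CTCF. WTL and KOL cells additionally received 100 ng/ml of lipopolysaccharide (LPS) for 3 h, whereas WT and KO cells did not. Tamoxifen was given on the first day of culture, and whether the WT cultures received it as well was not clear from the sources used here, so an effect of the drug and an effect of CTCF loss cannot be told apart. The donor mice were littermates of 8–12 weeks, male and female by the study's methods. All 12 libraries used here, however, held Xist, the RNA of the inactive X chromosome, and 0 counts of the Y-linked gene Ddx3y. This is the pattern of female cells.

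Matrix metalloproteinases (MMPs) are zinc-dependent proteases made as inactive precursors and opened by removal of a propeptide. Collagenases such as MMP8 and MMP13 cut fibrillar collagen, gelatinases such as MMP9 cut denatured and basement-membrane collagen, MMP12 is the elastase of macrophages, and MMP14 is anchored in the membrane, where it cuts pericellular collagen. ADAMs are membrane proteases of a related fold that release the outer part of surface proteins, and ADAM17 is the enzyme that sheds tumour necrosis factor. Tissue inhibitors of metalloproteinases (TIMPs) bind the active site of many MMPs. Dendritic cells are known to use such proteases when they leave a tissue after sensing microbial products such as LPS.

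The libraries held 12769773 to 16586334 expected counts each. Ctcf itself was at 1051, 987 and 975 normalized counts in WT and at 570, 562 and 516 in KO, lower by -0.87 ± 0.08 on the log2 scale (± SE, with an adjusted p of 3.9e-07 from edgeR's quasi-likelihood fit over all genes tested). It was at 886, 817 and 745 in WTL against 564, 530 and 526 in KOL, where the log2 fold change of -0.59 ± 0.08 was close to the fold threshold of 1.5 and fell short of it without the filter on low counts (-0.58), with 10 counts or more in every library (-0.58), under limma on TPM (-0.42 and -0.45), with the 6 libraries alone (-0.56), and without WTL replicate 1 (-0.53), KOL replicate 2 (-0.58) or KOL replicate 3 (-0.57). Counts are over the whole gene, so a transcript that lacks the deleted part is still counted. The dendritic cell markers Itgax, Cd74 and H2-Ab1 were present in every library, with Itgax at 10591 to 22158 normalized counts. By the thresholds given below, 1 of the 8 markers on that list was higher in KO than in WT (Itgax). In the same comparison 4 were lower (H2-Ab1, H2-Eb1, Flt3 and Ccr7), beside 17.3% of all genes higher and 17.2% lower. In KOL against WTL 2 were lower (Ciita and Flt3) and none higher, beside 12.5% of all genes each way. Markers of stromal cells, mast cells and lymphocytes summed to at most 6.04 TPM (a level per transcript length, scaled to the same sum in each library) per list in any library, with the stromal maximum in WTL replicate 2, which also held 5.17% of its counts in ribosomal RNA genes against at most 1.19% elsewhere. Osteoclast markers summed to 397 to 442 TPM in WT and 337 to 349 in KO, with 2 of the 4 tested lower in KO and none higher. In bulk samples such as these, fewer cells of a type and less RNA per cell cannot be told apart.

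The promoters of 8 of the 10 genes were in the RefSeq table used here (GRCm38.p6), which covers 250 bases before and 50 bases after each annotated start. The 4 below are shown because Mmp13 and Timp1 were the members with the highest fold change after LPS, Mmp12 was the most abundant, and Timp2 was the one with the largest change on CTCF depletion. Capitals mark matches, on either strand, to the AP-1 element (TGANTCA) or to an ETS core (AGGAAG, the PEA3 type known from MMP promoters), and all letters are given in the direction of transcription. Of the 2 Mmp12 promoters only the second is printed, and it is the one with the AP-1 match. The first holds an ETS match and is described below.
Mmp13, chr9:7272264-7272563, plus strand: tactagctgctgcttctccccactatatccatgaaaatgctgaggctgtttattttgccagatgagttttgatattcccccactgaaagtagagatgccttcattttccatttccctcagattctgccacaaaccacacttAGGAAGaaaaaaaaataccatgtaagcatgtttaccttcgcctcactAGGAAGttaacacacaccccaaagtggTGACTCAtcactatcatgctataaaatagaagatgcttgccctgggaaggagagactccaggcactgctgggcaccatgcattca
Timp1, chrX:20869916-20870215, plus strand: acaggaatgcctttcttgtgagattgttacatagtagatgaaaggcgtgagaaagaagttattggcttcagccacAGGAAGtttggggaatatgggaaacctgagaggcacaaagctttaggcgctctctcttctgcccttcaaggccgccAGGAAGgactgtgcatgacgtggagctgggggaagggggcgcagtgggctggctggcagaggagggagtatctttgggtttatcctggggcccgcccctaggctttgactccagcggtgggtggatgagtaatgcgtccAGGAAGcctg
Mmp12, second of 2 annotated starts, chr9:7347124-7347423, plus strand: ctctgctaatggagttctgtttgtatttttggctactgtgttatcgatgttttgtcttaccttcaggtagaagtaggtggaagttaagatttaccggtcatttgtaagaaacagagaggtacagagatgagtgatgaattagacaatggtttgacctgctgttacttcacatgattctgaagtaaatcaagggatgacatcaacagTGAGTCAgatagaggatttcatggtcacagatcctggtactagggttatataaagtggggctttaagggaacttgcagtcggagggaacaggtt
Timp2, chr11:118355362-118355661, minus strand: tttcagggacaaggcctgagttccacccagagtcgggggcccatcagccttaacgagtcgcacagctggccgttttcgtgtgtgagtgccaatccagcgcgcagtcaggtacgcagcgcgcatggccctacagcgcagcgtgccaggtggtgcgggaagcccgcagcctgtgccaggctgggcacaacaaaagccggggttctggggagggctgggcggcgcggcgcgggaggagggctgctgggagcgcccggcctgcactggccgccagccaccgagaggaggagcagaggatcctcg
The AP-1 letters stood at position -35 of Mmp13 and at -44 of the second Mmp12 promoter, counted from the annotated start, and in none of the other member promoters in the table; 7.81% of all 32851 promoters held them. ETS letters stood at -109 and -62 in Mmp13 and at -175, -99 and 41 in Timp1, and also in the promoters, not shown, of Mmp8 (-220), Mmp14 (-209), Adam17 (-153 and -122) and the first start of Mmp12 (-87), and 35.4% of all promoters held at least 1. The letters TTCNNNGAA of STAT factors (8.30% of all promoters) and the CTCF core motif (0.557%) were in no member promoter of the table. A kB motif (8.46% of all promoters) was found in the first Mmp12 promoter alone, which is not shown. These are matches of letters and not measured binding.

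Measured per transcript length, Mmp12 was far the most abundant member in every group, at 2635 ± 54.4 TPM in WT, 1960 ± 372 in WTL, 4177 ± 112 in KO and 2397 ± 297 in KOL (mean ± SD, n = 3). It made up 75.7% to 77.0% of the summed TPM of the 10 members in WT libraries and 88.2% to 89.0% in KO libraries. Adam8 came second in WT at 342 ± 19.3 TPM, followed by Mmp14 (124 ± 1.64), Adam17 (111 ± 2.60), Mmp19 (102 ± 2.17), Mmp8 (76.3 ± 4.63), Timp2 (32.4 ± 1.03), Timp1 (12.9 ± 1.60), Mmp13 (12.1 ± 0.959) and Mmp9 (1.97 ± 0.248). In that order only the neighbours Timp1 and Mmp13 overlapped between WT libraries. The order differed after LPS: in WTL, Mmp13 (201 ± 54.8 TPM) overlapped both Adam8 above it and Mmp14 below it, Timp1 (95.0 ± 3.59) overlapped Adam17, and Mmp8 overlapped Mmp19. Adam8 and Adam17 overlapped in KO, and Timp1, Adam17 and Mmp14 formed an overlapping run in KOL. In KO the lower end of the order held Mmp13 (5.85 ± 0.0964 TPM), Timp2 (4.59 ± 0.903) and Mmp9 (1.90 ± 0.276), and in KOL Timp2 (3.59 ± 0.480) and Mmp9 (1.67 ± 0.267).

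**Figure D1:**
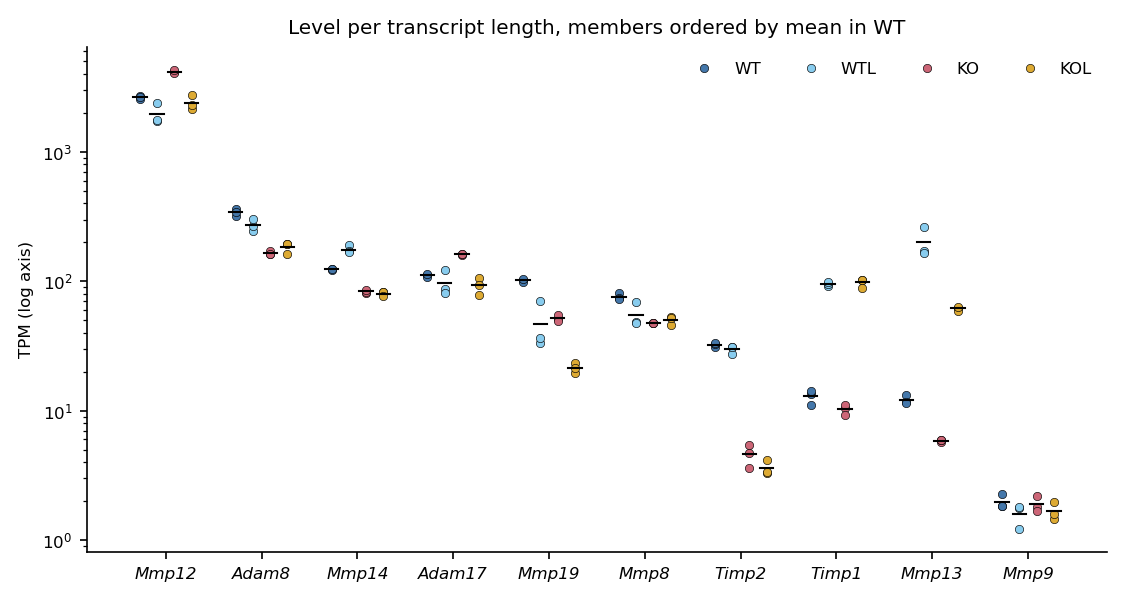
TPM of the 10 members (log axis) in each of the 3 libraries of WT, WTL, KO and KOL, with a line at each group mean and genes ordered by their mean in WT. Mmp12 stands above all others in each group, Timp1 and Mmp13 are higher in WTL and KOL than in the untreated groups, and Timp2 is lower in KO and KOL.

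Differences between groups were tested on counts, and a gene was called when its adjusted p was under 0.05 and its fold change passed a threshold, which was 2 for LPS in either genotype, 1.3 between untreated KO and WT cells and 1.5 between KOL and WTL. With LPS, 3 of 10 members rose in WT cells (Mmp13, Mmp14 and Timp1) and none fell, where 12.6% of all genes tested were called higher and 9.99% lower. In CTCF-depleted cells LPS raised 2 of 10 (Mmp13 and Timp1) and lowered none, against 15.1% higher and 13.0% lower over all genes. Without the fold threshold 9 members passed in this comparison, 5 higher and 4 lower, as did 67.5% of all genes. KO differed from WT in 8 of 10 members, with Mmp12 and Adam17 higher and Mmp8, Mmp13, Mmp14, Mmp19, Adam8 and Timp2 lower, where 17.3% of all genes were called higher and 17.2% lower. In KOL against WTL, Mmp13, Mmp14, Mmp19 and Timp2 were lower and no member was called higher, against 12.5% of all genes lower and 12.5% higher. The LPS response itself differed between genotypes, by an interaction term with adjusted p under 0.05, in 1 member upwards (Adam8) and 3 downwards (Mmp13, Mmp14 and Adam17), with 8.70% and 8.75% of all genes. The median log2 fold change of the members was 0.24 for WTL against WT, -0.52 for KO against WT, -0.31 for KOL against WTL, 0.34 for KOL against KO and -0.21 for the interaction, beside -0.02, -0.01, -0.04, -0.02 and -0.02 over all genes. These comparisons share libraries with each other (WT serves both WTL and KO, and KO serves both WT and KOL), so their values are not independent.

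**Figure D2:**
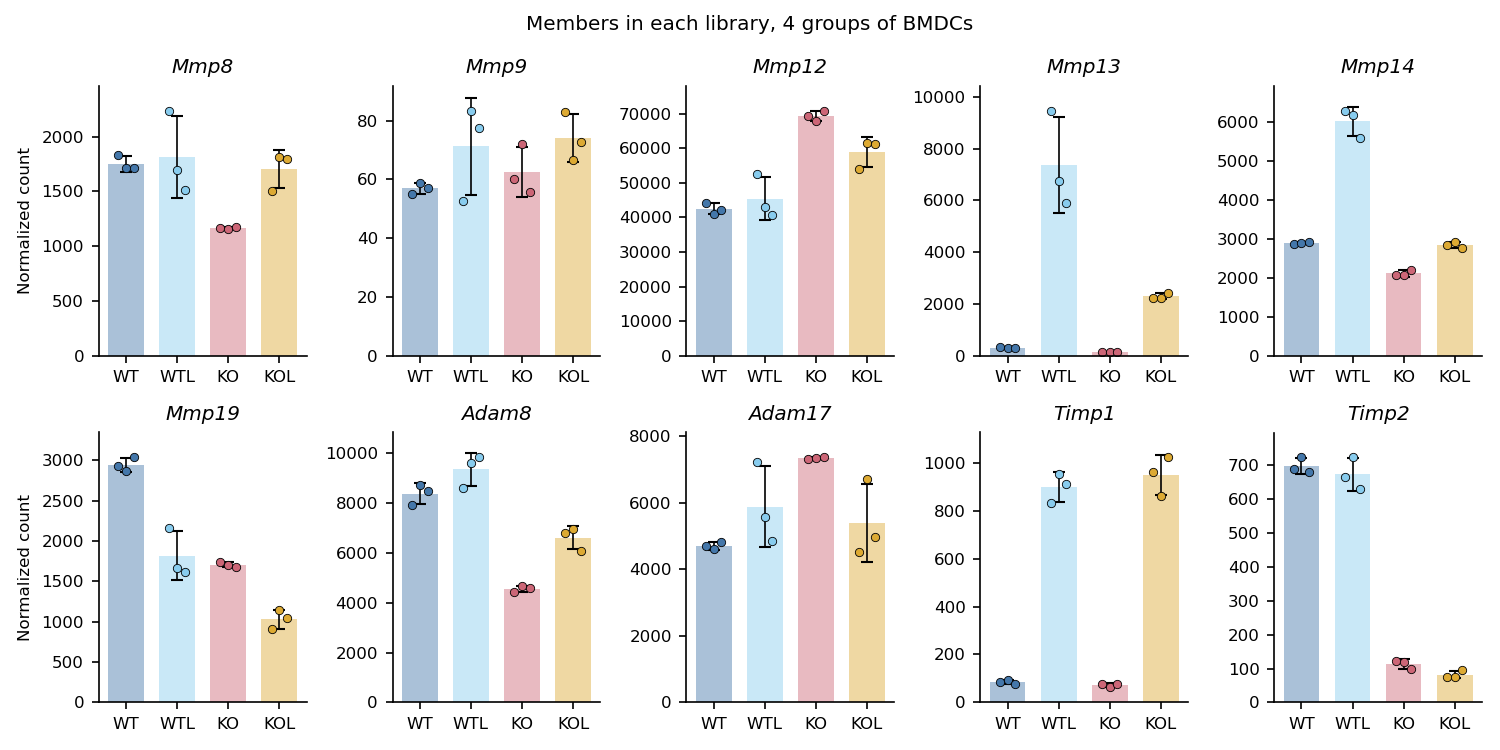
Normalized counts of each member on a linear axis in the 4 groups; bars are means, whiskers ± 1 SD and points the 3 libraries. Mmp13 reaches 5919 to 9470 in WTL and 2250 to 2433 in KOL, and Timp2 stays at or below 123 in KO and KOL.

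Mmp13 (ENSMUSG00000050578.10), the broad collagenase, occupies bases 7272514 to 7283331 of chromosome 9 (mm10, plus strand). Its 3 WT libraries held 330, 299 and 298 normalized counts, the KO libraries 158, 159 and 162, the WTL libraries 9470, 6745 and 5919, and the KOL libraries 2250, 2253 and 2433. No 2 of the 4 groups overlapped, and WTL replicate 1 was the highest library. LPS raised Mmp13 by 4.58 ± 0.15 on the log2 scale (SE; 23.9-fold, adjusted p = 4.8e-12) in WT cells and by 3.85 ± 0.15 (14.5-fold, adjusted p = 2.6e-11) in CTCF-depleted cells. CTCF depletion was accompanied by a log2 fold change of -0.95 ± 0.15 without LPS (adjusted p = 0.00014) and of -1.67 ± 0.13 with LPS (adjusted p = 1.3e-07). The difference between the 2 LPS responses was -0.72 ± 0.20 (adjusted p = 0.022). That call was lost when WT replicate 1, 2 or 3 or KO replicate 3 was left out, at adjusted p of 0.053, 0.084, 0.083 and 0.057, and under limma on log2(TPM + 0.1), at 0.080.

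Mmp8 (ENSMUSG00000005800.3), the collagenase first known from neutrophil granules, lies 286 kb from Mmp13 in the same cluster, from 7558456 to 7568485 of chromosome 9. It was at 1830, 1710 and 1709 normalized counts in WT and at 1168, 1160 and 1172 in KO, and at 2237, 1696 and 1517 in WTL and 1500, 1810 and 1792 in KOL. The KO libraries stood below all the others, while WT, WTL and KOL overlapped. In KO the log2 fold change against WT was -0.58 ± 0.12 (SE; adjusted p = 0.0010). With LPS the difference between the genotypes was -0.09 ± 0.12 (adjusted p = 0.55). KOL against KO was 0.54 ± 0.12 (1.46-fold, adjusted p = 0.00099), under the fold threshold for LPS. The interaction was 0.49 ± 0.17 (adjusted p = 0.058), with adjusted p of 0.0027 without the filter on low counts, 0.037 with DESeq2, 0.045 when every library had to hold 10 counts or more, 0.0015 without WTL replicate 1 and 0.038 without KOL replicate 1. The summed level of neutrophil markers was 378 to 401 TPM in WT, 350 to 443 in WTL, 195 to 227 in KO and 288 to 337 in KOL. Of the 8 tested, 6 were lower and 1 higher in KO than in WT, and 5 were lower and none higher in KOL than in WTL, where Mmp8 passed no test. Over all genes tested, 17.2% were lower and 17.3% higher in KO than in WT, and 12.5% were called each way in KOL against WTL. Ngp, a granule protein with the largest fall of the list, was at 77.2, 61.2 and 88.2 normalized counts in WT and at 3.59, 2.88 and 4.63 in KO, and at 135, 127 and 182 in WTL and 8.60, 10.5 and 9.61 in KOL. S100a8, a calcium-binding protein of myeloid cells, was 1.36-fold lower in KO (adjusted p = 0.0027), Retnlg was not called, and the chemokine receptor Cxcr2 was higher, at 39.6 ± 3.94 in KO against 17.9 ± 3.93 in WT (adjusted p = 0.0056). The defining neutrophil marker Ly6g did not pass the filter on low counts. It was at 2.76 or below in WT, 3.25 or below in WTL, 2.88 or below in KO and at 10.7 to 19.9 in KOL. The part of these cells in the Mmp8 level was not tested.

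Mmp9 (ENSMUSG00000017737.2), the gelatinase of migrating leukocytes, lies on chromosome 2 from 164940780 to 164955850. It was the scarcest member, at 55.1, 58.7 and 57.0 normalized counts in WT, 52.6, 83.4 and 77.6 in WTL, 60.1, 72.0 and 55.6 in KO and 82.8, 66.7 and 72.6 in KOL. All 4 groups overlapped with at least 1 other, and no comparison passed the test with all libraries in. With 1 library left out, Mmp9 reached an adjusted p of 0.017 at the lowest for WTL against WT. The log2 fold changes of those runs were 0.21 to 0.50, under the fold threshold. Its log2 fold changes were 0.33 ± 0.18 for WTL against WT (adjusted p = 0.12), 0.25 ± 0.18 for KOL against KO (adjusted p = 0.23) and 0.13 ± 0.18 for KO against WT (adjusted p = 0.58), and these signs turned negative on the TPM scale. KOL against WTL was 0.04 ± 0.18 (adjusted p = 0.86) and the interaction -0.09 ± 0.25 (adjusted p = 0.86).

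Mmp12 (ENSMUSG00000049723.14), macrophage elastase, lies on chromosome 9 from 7344381 to 7369499 and overlaps 1261 bases of Mmp1b, whose own level did not exceed 1.17 normalized counts. It was at 44287, 41025 and 42265 normalized counts in WT and at 69420, 67965 and 70910 in KO. With LPS it was at 52545, 42992 and 40807 in WTL and at 53899, 61422 and 61297 in KOL. Every KO library was above every WT library, and every KOL library above every WTL library. Mmp12 rose in KO by 0.71 ± 0.09 on the log2 scale (SE; 1.63-fold, adjusted p = 1.9e-05). KOL against WTL was 0.37 ± 0.09 (adjusted p = 0.0038), which did not reach the fold threshold of 1.5. KOL against KO was -0.24 ± 0.09 (adjusted p = 0.030), also under the fold threshold. The interaction was -0.33 ± 0.13 (adjusted p = 0.089), and it passed without WTL replicate 3 or KOL replicate 2, at adjusted p of 0.034 and 0.048. WTL against WT was 0.10 ± 0.09 (adjusted p = 0.37), and this sign was reversed on the TPM scale, where it was -0.44 with all genes at a median of -0.44. Macrophage markers summed to 525 to 575 TPM in WT and 654 to 682 in KO, and their part in the Mmp12 level was not tested. Of these 10 markers, 3 were higher and 3 lower in KO, beside 17.3% of all genes higher and 17.2% lower. Of the defining ones, Adgre1 was lower in KO (946 to 1005 normalized counts) than in WT (1648 to 1767), whereas Csf1r was at 23258 to 24103 in KO and at 13491 to 14631 in WT.

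Mmp14 (ENSMUSG00000000957.11), the membrane-anchored collagenase that also opens other MMP precursors, lies on chromosome 14 from 54431612 to 54445364. Its WT libraries held 2864, 2886 and 2929 normalized counts, its WTL libraries 6290, 6173 and 5587, its KO libraries 2063, 2068 and 2207 and its KOL libraries 2834, 2916 and 2768. In these counts KOL lay at the level of untreated WT, whereas in TPM it was at 76.4 to 82.9 against 122 to 125 in WT. WTL lay above every other group on both scales. LPS raised Mmp14 in WT cells by 1.06 ± 0.07 on the log2 scale (SE; 2.08-fold, adjusted p = 4.2e-09). Because this is close to the fold threshold, leaving out WT replicate 1, 2 or 3 took it to 0.97, 0.98 and 0.99 and out of the calls, and it was 0.50 on the TPM scale. In CTCF-depleted cells the LPS effect was 0.43 ± 0.07 (1.34-fold, adjusted p = 4.8e-05), under the fold threshold and at -0.06 on the TPM scale. Mmp14 fell on CTCF depletion, by -0.45 ± 0.07 without LPS (adjusted p = 5.6e-05) and by -1.08 ± 0.07 with LPS (adjusted p = 1.1e-08). The difference between the LPS responses was -0.63 ± 0.09 (adjusted p = 0.00036), and it passed the threshold in every alternative run.

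Mmp19 (ENSMUSG00000025355.7), a secreted MMP found in several resting tissues, lies on chromosome 10 from 128790910 to 128800824. It was at 2927, 2870 and 3039 normalized counts in WT, 2163, 1669 and 1621 in WTL, 1738, 1703 and 1680 in KO and 905, 1141 and 1044 in KOL. WT was the highest group and KOL the lowest, with WTL and KO overlapping between them. KO against WT was -0.79 ± 0.11 on the log2 scale (SE; adjusted p = 2.7e-05) and KOL against WTL -0.82 ± 0.11 (adjusted p = 2.4e-05), both past the fold thresholds. LPS was accompanied by -0.70 ± 0.11 in WT (adjusted p = 5.0e-05) and -0.73 ± 0.11 in CTCF-depleted cells (adjusted p = 3.1e-05), 1.62-fold and 1.66-fold lower, which is under the fold threshold of 2. The interaction was -0.03 ± 0.15 (adjusted p = 0.92). A protein-coding gene on the opposite strand, Tmem198b, shares 789 bases with Mmp19 and was at 175 to 279 normalized counts.

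Adam8 (ENSMUSG00000025473.16), a leukocyte sheddase, lies on the minus strand of chromosome 7 from 139978932 to 139992562. It was at 7906, 8731 and 8498 normalized counts in WT and at 4427, 4669 and 4580 in KO. With LPS it was at 8608, 9595 and 9846 in WTL and at 6799, 6939 and 6075 in KOL. KO was the lowest group, KOL stood between KO and WT, and WT and WTL overlapped. Adam8 fell in KO by -0.88 ± 0.08 on the log2 scale (SE; 54.4% of the WT level, adjusted p = 3.2e-07). KOL against WTL was -0.50 ± 0.07 (adjusted p = 7.9e-05), under the fold threshold. LPS moved Adam8 by 0.53 ± 0.07 in CTCF-depleted cells (adjusted p = 2.0e-05), again under the fold threshold, and by 0.16 ± 0.07 in WT (adjusted p = 0.080), the latter with the opposite sign on the TPM scale. The interaction was 0.38 ± 0.11 (adjusted p = 0.025) and lost its call without KO replicate 1, KO replicate 3 or KOL replicate 1, at adjusted p of 0.073, 0.060 and 0.058. Adam8 is in a gene list that the study drew from these libraries, so its direction is no independent evidence.

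Adam17 (ENSMUSG00000052593.16), the TNF-converting enzyme, lies on the minus strand of chromosome 12 from 21323509 to 21373632. Its WT libraries held 4692, 4592 and 4824 normalized counts and its KO libraries 7318, 7323 and 7366. WTL was at 7213, 5578 and 4844 and KOL at 4505, 6695 and 4957, a wider spread than in the untreated groups, and the 2 LPS groups overlapped. Adam17 rose in KO by 0.64 ± 0.14 on the log2 scale (SE; 1.56-fold, adjusted p = 0.0020). KOL against WTL was -0.13 ± 0.14 (adjusted p = 0.50). LPS was accompanied by 0.32 ± 0.14 in WT (adjusted p = 0.063), with the sign reversed on the TPM scale, and by -0.45 ± 0.14 in CTCF-depleted cells (adjusted p = 0.012), under the fold threshold. The interaction was -0.77 ± 0.20 (adjusted p = 0.017), and without WT replicate 1, 2 or 3 its adjusted p was 0.060, 0.066 and 0.052, with 0.083 and 0.089 under limma on log2(TPM + 1) and log2(TPM + 0.1). Iah1, on the opposite strand, shares 311 bases with Adam17 and was at 474 to 657 normalized counts.

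Timp1 (ENSMUSG00000001131.11), a secreted inhibitor known to be inducible, lies on the X chromosome from 20870166 to 20874735, wholly inside Syn1, which runs on the opposite strand. It was at 85.4, 94.8 and 75.2 normalized counts in WT and at 75.4, 64.3 and 78.7 in KO. With LPS it was at 831, 953 and 911 in WTL and at 962, 861 and 1024 in KOL. The LPS groups stood above the untreated groups in both genotypes, and within each treatment the genotypes overlapped. LPS raised Timp1 by 3.40 ± 0.11 on the log2 scale in WT (SE; 10.5-fold, adjusted p = 2.9e-12) and by 3.70 ± 0.11 in CTCF-depleted cells (13.0-fold, adjusted p = 1.3e-12). KO against WT was -0.22 ± 0.13 (adjusted p = 0.18), KOL against WTL 0.08 ± 0.09 (adjusted p = 0.50), and the interaction 0.30 ± 0.16 (adjusted p = 0.21). Syn1 was at 49.9 to 116 normalized counts in WTL and 37.4 to 82.8 in KOL. Xist, the RNA of the inactive X chromosome, was at 12450 to 25378 normalized counts in the 12 libraries and the Y-linked gene Ddx3y had 0 counts in all of them.

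Timp2 (ENSMUSG00000017466.9), the inhibitor that also joins MMP14 in opening the precursor of MMP2, lies on the minus strand of chromosome 11 from 118301069 to 118355740. It was at 689, 724 and 682 normalized counts in WT and at 665, 725 and 631 in WTL, whereas the KO libraries held 123, 120 and 97.3 and the KOL libraries 75.3, 76.1 and 95.0. The genotypes were separated by a wide gap with and without LPS. Timp2 fell by -2.62 ± 0.10 on the log2 scale in KO (SE; 6.15-fold lower, adjusted p = 9.2e-11) and by -3.03 ± 0.11 in KOL against WTL (8.18-fold lower, adjusted p = 9.0e-11). LPS was accompanied by -0.05 ± 0.09 in WT (adjusted p = 0.63) and by -0.46 ± 0.13 in CTCF-depleted cells (adjusted p = 0.0048), the latter under the fold threshold. The interaction was -0.41 ± 0.15 (adjusted p = 0.083), and it passed without KO replicate 3 or KOL replicate 3, at adjusted p of 0.044 and 0.039. Cep295nl, on the same strand, shares 10141 bases with Timp2 and did not exceed 9.44 normalized counts.

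**Figure D3:**
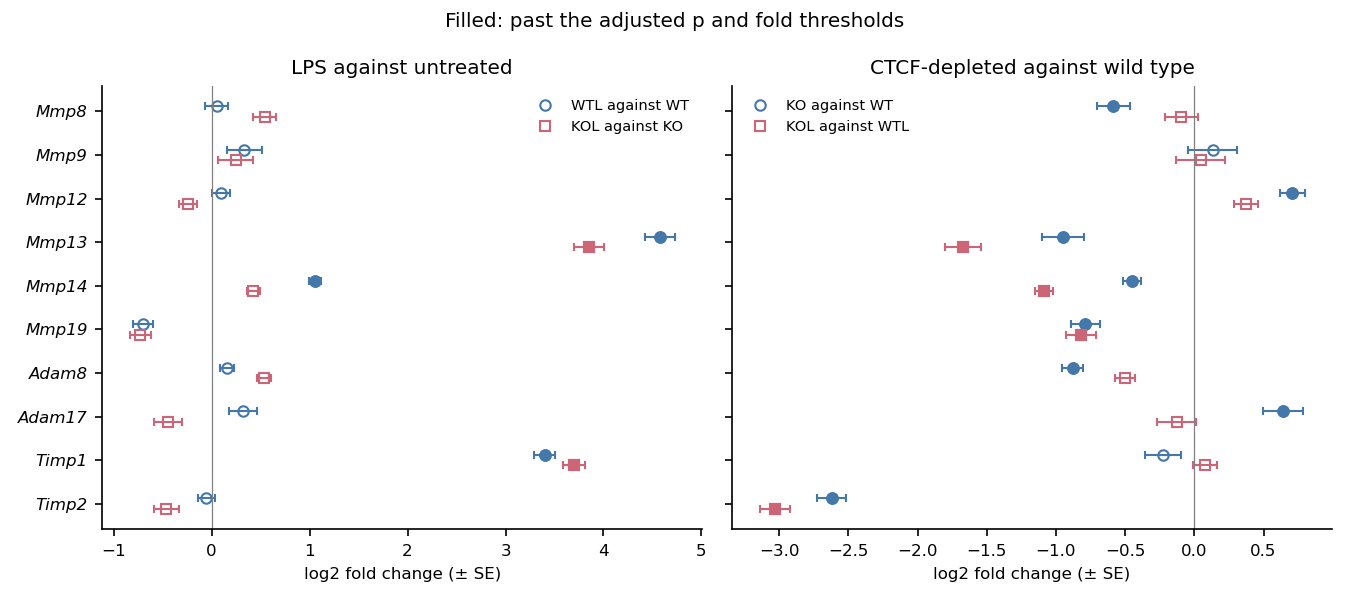
Log2 fold changes (± SE) of the members for LPS in each genotype (left) and for CTCF depletion in each treatment (right), from 1 fit over 12 libraries; filled symbols are past the adjusted p and fold thresholds. Mmp13 and Timp1 sit far to the right for LPS, and Timp2 far to the left for CTCF depletion.

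The 6 member MMPs summed to 2885 to 3004 TPM in WT, 2167 to 2984 in WTL, 4265 to 4485 in KO and 2369 to 2948 in KOL, so that the sum was highest in KO and most of it was Mmp12. With LPS the median gene itself was lower on the TPM scale, at -0.44 for WTL against WT and -0.38 for KOL against KO (log2 of TPM + 1). The counts of Mmp12 gave 0.10 ± 0.09 and -0.24 ± 0.09 in these comparisons. Without Mmp12 the direction in KO turned, and the others gave a summed MMP level (Mmp8, Mmp9, Mmp13, Mmp14 and Mmp19) of 309 to 322 TPM in WT, 418 to 595 in WTL, 187 to 194 in KO and 213 to 220 in KOL. The 2 TIMPs summed to 44.3 to 47.0 TPM in WT, 122 to 130 in WTL, 14.1 to 15.8 in KO and 91.9 to 107 in KOL. Timp1 supplied 25.0% to 30.1% of the TIMP sum in WT and 96.1% to 96.9% in KOL, with 62.9% to 74.3% in KO and 74.6% to 77.5% in WTL. The ratio of the MMP sum without Mmp12 to the TIMP sum was 6.97 ± 0.340 in WT, 3.85 ± 0.874 in WTL, 12.9 ± 0.693 in KO and 2.13 ± 0.222 in KOL (mean ± SD, n = 3), and the libraries of the 4 groups did not overlap on it. With Mmp12 included the ratio was 65.1 ± 3.24 in WT, 19.6 ± 4.13 in WTL, 295 ± 12.2 in KO and 25.97 ± 5.35 in KOL, so that KO remained the highest group while WTL (16.7 to 24.3) and KOL (22.3 to 32.1) overlapped and KOL was no longer the lowest. A ratio of sums within a library is free of the scaling between libraries, and it was given with no test. Both sums are of RNA, so they say nothing of secreted or active protein.

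**Figure D4:**
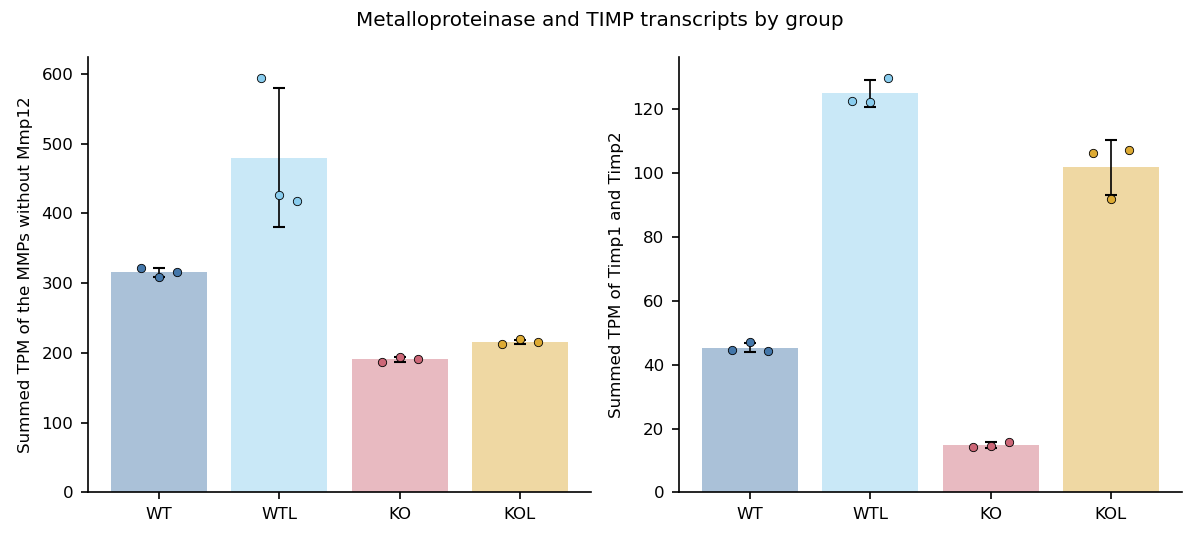
Summed TPM of Mmp8, Mmp9, Mmp13, Mmp14 and Mmp19 (left) and of Timp1 and Timp2 (right) by group; bars are means, whiskers ± 1 SD and points the 3 libraries. The TIMP sum is lowest in KO, at 14.1 to 15.8 TPM, and highest in WTL.

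Mmp13, Mmp12 and Mmp8 belong to a run of 10 Mmp genes that spans 427 kb of chromosome 9, from 7272514 to 7699585. The other 7 (Mmp1b, Mmp3, Mmp1a, Mmp10, Mmp27, Mmp20 and Mmp7) did not pass the filter on low counts, and Mmp20 was the highest of them, at 10.3 ± 2.42 normalized counts in KOL. In KO against WT the 3 expressed genes of the run moved in both directions, with Mmp12 higher and Mmp13 and Mmp8 lower. Of the nearest protein-coding genes, Dcun1d5 on the Mmp13 side was at 609 ± 49.0 normalized counts in WT and at 1298 ± 28.9 in KO (log2 fold change 1.09 ± 0.11, adjusted p = 1.5e-06), and Dync2h1 beyond it was at 133 ± 3.22 and 382 ± 2.73 (1.52 ± 0.23, adjusted p = 7.9e-05). On the Mmp7 side, Tmem123 was at 9207 ± 431 in WT and 8031 ± 359 in KO (-0.20 ± 0.09, adjusted p = 0.076), and Birc2, an inhibitor of apoptosis, fell from 1174 ± 12.2 to 837 ± 49.99 (-0.49 ± 0.07, adjusted p = 4.2e-05). In KOL against WTL, Tmem123 (0.71 ± 0.09, adjusted p = 1.1e-05) and Dcun1d5 (1.09 ± 0.11, adjusted p = 1.6e-06) were called higher. Birc2 was not called there (-0.11 ± 0.07, adjusted p = 0.19). Neither was Dync2h1 (0.69 ± 0.275, adjusted p = 0.056), which passed without the filter on low counts and without WTL replicate 1 or KOL replicate 1 or 3.

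**Figure D5:**
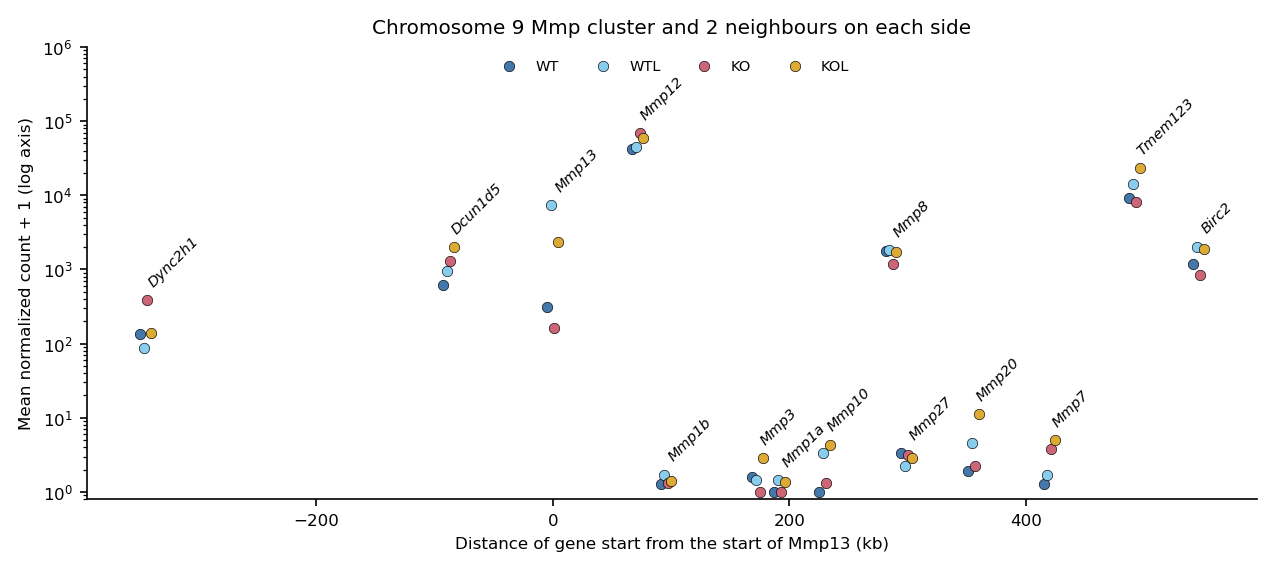
Mean normalized count + 1 (log axis) of the 10 Mmp genes of the chromosome 9 run and of 2 protein-coding neighbours on each side, against the distance of each gene start from that of Mmp13. Mmp13, Mmp12 and Mmp8 are expressed and the other Mmp genes stay near the bottom of the axis.

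The other genes of these pathways were taken from 7 lists. In KO against WT the median log2 fold change of the tested genes was -1.02 over other MMPs, -0.36 over other ADAMs, -0.71 over ADAMTS proteases, 0.36 over other inhibitors and clearance receptors, -0.59 over plasminogen activation, 0.42 over activation and trafficking partners and -0.43 over ADAM17 substrates, beside -0.01 over all genes. With LPS in WT these medians were 0.82, -0.25, -0.10, 0.80, 0.52, 1.21 and 0.93 in the same order, beside -0.02. Between KOL and WTL, 1 of 4 tested MMPs was called higher and 1 lower, and 1 of 8 ADAMs was lower. Of 5 ADAMTS genes 3 were higher and 2 lower, and of 8 inhibitors 4 were higher and 2 lower. Of 3 plasminogen genes 1 was lower, and of 6 partners 1 was higher. Of 12 ADAM17 substrates 1 was higher and 5 were lower. Over all genes tested, 12.5% were called higher and 12.5% lower in this comparison. For the counts below, these shares were 12.6% and 9.99% for LPS in WT, 15.1% and 13.0% for LPS in CTCF-depleted cells, and 17.3% and 17.2% for KO against WT.

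Other metalloproteinase genes were sparse. Of 17 further MMPs, 4 were tested; LPS raised 2 in WT and 2 in CTCF-depleted cells, and in KO against WT 1 was higher and 3 were lower. The count was 1 in WT without WT replicate 2 or 3 or WTL replicate 1, and 1 in CTCF-depleted cells without KO replicate 1 or KOL replicate 1. The 1 MMP called higher in KOL than in WTL was Mmp28, named here after its values were seen, at 15.7 ± 4.58 against 6.64 ± 1.39 normalized counts (adjusted p = 0.046). No further MMP was called higher there without WTL replicate 1 or 2 or KOL replicate 1 or 3, or without the filter, with 10 counts or more in every library, with DESeq2, under limma on TPM or with the 6 libraries alone. Mmp25, a membrane-anchored MMP of leukocytes, was at 1820, 1911 and 1872 normalized counts in WT, 5291, 5565 and 6094 in WTL, 705, 755 and 658 in KO and 4523, 4627 and 3957 in KOL. Its log2 fold changes were 1.60 ± 0.08 for LPS in WT (adjusted p = 5.0e-10), 2.63 ± 0.09 for LPS in CTCF-depleted cells (adjusted p = 3.5e-12) and -1.40 ± 0.08 for KO against WT (adjusted p = 7.4e-09). Mmp2, the gelatinase that MMP14 and TIMP2 open, fell from 314, 353 and 321 in WT to 75.4, 69.1 and 81.5 in KO (-2.13 ± 0.12, adjusted p = 4.2e-09), and was 3.20-fold lower in KOL than in WTL.

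Of 11 further ADAMs, 8 were tested, and in KO against WT 2 were higher and 4 lower. Adam23 fell from 548 ± 7.40 to 118 ± 5.27 normalized counts, Adam19 from 1339 ± 22.3 to 654 ± 40.5 and Adam11 from 380 ± 18.9 to 196 ± 4.16. Adam10, the closest relative of Adam17, fell with LPS in CTCF-depleted cells, from 2962 ± 7.18 to 1143 ± 90.7 (-1.37 ± 0.09, adjusted p = 8.1e-09), and in WT from 2524 ± 65.8 to 1428 ± 197 (-0.82 ± 0.09, adjusted p = 2.2e-06), under the fold threshold of 2. Adam19 likewise had -0.93 ± 0.08 with LPS in WT (adjusted p = 2.7e-07). With LPS in WT 4 of the 8 passed the adjusted p of edgeR's fit and 0 passed the fold threshold as well, but 1 was called lower without WT replicate 1, 2 or 3 or WTL replicate 2 or 3, and 2 and 3 were called under limma on log2(TPM + 1) and log2(TPM + 0.1). In KOL against WTL, Adam23 was the 1 gene lower, and none was higher. Of 19 ADAMTS genes, a secreted branch of the family, 5 were tested, and 1 was higher and 2 were lower in KO. Adamts10 was at 812 ± 22.6 in WT, 324 ± 3.89 in WTL, 1755 ± 72.6 in KO and 577 ± 80.3 in KOL, so that LPS lowered it in both genotypes and CTCF depletion raised it in both treatments.

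Among 10 other inhibitors and clearance receptors, 8 were tested, and LPS raised 3 in WT and 5 in CTCF-depleted cells, and 1, Lrp1, was called lower in the latter. Serpinb2, a serpin found mostly inside cells, went from 183 ± 9.16 to 2668 ± 543 normalized counts in WT and from 42.3 ± 7.81 to 1301 ± 235 in CTCF-depleted cells. Lrp1, an endocytic receptor that clears protease and inhibitor complexes, fell with LPS in CTCF-depleted cells from 10602 ± 330 to 3225 ± 773 and in WT from 8782 ± 812 to 5332 ± 850 (-0.72 ± 0.14, adjusted p = 0.00065), where it did not reach the fold threshold of 2. In KO against WT 3 of the 8 were higher and 2 lower, the latter Serpinb2 and the cystatin Cst3 (29328 ± 2173 in WT against 20820 ± 555 in KO). Spint1, a Kunitz inhibitor of serine proteases, was higher in KO (2841 ± 78.5) than in WT (2098 ± 97.0; 0.44 ± 0.09 on the log2 scale, adjusted p = 0.00086), and fell below the fold threshold without WT replicate 3 (0.38) and on the TPM scale (0.33). Its relative Spint2 rose with LPS in CTCF-depleted cells, from 194 ± 19.6 to 515 ± 131, with a log2 fold change of 1.41 that was 0.89 on the TPM scale, under the threshold. Spint2 was 1.60-fold higher in KOL than in WTL (adjusted p = 0.0049), with overlapping groups, and lost that call without WTL replicate 1 or KOL replicate 1. Reck, a membrane-anchored MMP inhibitor named here after its values were seen and below the count minimum for named genes, was at 10.1, 5.03 and 8.64 in WT and at 64.6, 86.4 and 88.9 in KO. Of the plasminogen activation list, Plat, tissue plasminogen activator, was at 10.1, 17.6 and 10.4 in WT and at 704, 679 and 770 in WTL, and at 2.69, 6.72 and 2.78 in KO and 260, 363 and 286 in KOL. Plau, urokinase, fell in KO (-0.59 ± 0.08, adjusted p = 3.0e-05) and rose with LPS in CTCF-depleted cells (1.11 ± 0.08, adjusted p = 2.0e-08).

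For the partners that activate or carry these proteases, 6 of 8 genes were tested, with 4 higher after LPS in WT, 2 higher after LPS in CTCF-depleted cells and 3 higher in KO. Rhbdf2, the iRhom that carries ADAM17 to the cell surface, was at 1208 ± 39.0 normalized counts in WT, 3145 ± 257 in WTL and 1771 ± 64.3 in KO. Furin, the convertase that removes the propeptide of MMP14 and ADAM17, went from 1880 ± 92.8 in WT to 3861 ± 295 in WTL (1.04 ± 0.09, adjusted p = 1.3e-07), close to the fold threshold and below it without WT replicate 1, 2 or 3 or WTL replicate 2 (0.92, 0.99, 0.97 and 0.97). Lcn2, also on this list, rose with LPS in both genotypes (7.75-fold in WT and 7.10-fold in CTCF-depleted cells). Frmd8, a further iRhom partner, rose in KO from 1036 ± 77.2 to 1454 ± 8.29.

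Genes for substrates of ADAM17 were tested in 12 of 13 cases. In WT cells LPS raised 6 and lowered 2, and in CTCF-depleted cells it raised 5 and lowered 2. Tnf went from 2459 ± 4.07 to 26399 ± 1805 normalized counts in WT and from 694 ± 29.0 to 12335 ± 1434 in CTCF-depleted cells. Ereg, an EGF-receptor ligand, went from 59.0 ± 4.04 to 437 ± 63.7 and from 7.46 ± 2.97 to 242 ± 17.0. Il6ra, an interleukin receptor chain, fell from 1247 ± 44.0 to 181 ± 8.83 and from 2327 ± 20.2 to 197 ± 19.3. In KO against WT 2 substrates were higher and 6 lower, among them Ereg, Tnf and the phagocytic receptor Mertk (237 ± 11.2 against 531 ± 19.0). In KOL against WTL 1 was higher, the chemokine Cx3cl1 (2943 ± 222 against 1156 ± 122), and 5 were lower.

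For each member, the genes whose log2 normalized counts followed it most closely over the 12 libraries were taken from 9337 others, as a description that includes the shared effects of group and scaling. Closest to Mmp13 were Itgav (Pearson r = 0.999) and Setdb2 (0.997), and closest to Timp1 were Isg15 (0.998) and Lta (0.998). The pairs for Mmp14 were Agtrap (0.996) and Dram1 (0.993), and those for Mmp19 were Bub1 (0.993) and Ccne2 (0.987). Timp2 was followed by F7 (0.995) and Dennd2a (0.991), Adam8 by Clu (0.991) and Ccnd1 (0.989), and Adam17 by Lpp (0.992) and Eml4 (0.975). Mmp12 was followed by Stag1 (0.977) and Rngtt (0.973), Mmp8 by Cops2 (0.948) and Il7r (0.947), and Mmp9 by Uxt (0.914) and Ccdc9 (0.879). Between members, r ran from -0.929 for Mmp12 and Adam8 to 0.949 for Mmp13 and Timp1.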

How the data were processed

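RNA-seq libraries of 4 groups with 3 biological replicates each were used. Per the submitters' notes and the study's methods, the authors aligned trimmed paired-end reads to mm10 with STAR (2.5.1 in the notes) and deposited RSEM expected counts and TPM per gene with GENCODE symbols. The strand setting of the counting is not given in the sources used here, and neither is the library chemistry with certainty, since the labels name ribosomal RNA depletion and the methods poly(A) selection. Expected counts were rounded to whole numbers. edgeR 4.0.16 (TMM factors, filterByExpr, quasi-likelihood test, 1 fit over 12 libraries, Benjamini-Hochberg adjustment over 14008 genes) gave every fold change and adjusted p, with an interaction term for the difference between LPS responses. Each SE was derived from this fit, as the absolute log2 fold change divided by the square root of the test's F statistic. For normalized counts, each count was scaled by its library's TMM-adjusted total to the average such total. TPM served for levels between genes and for sums over lists, which are given by group with no test. DESeq2 1.42.0 and limma 3.58.1 (on log2 of TPM plus 1 or 0.1, genes with TPM of at least 1 in 3 libraries) were alternatives, beside another scaling, other filters, a replicate block, the 6 libraries of a comparison alone, no fold threshold, and leaving out each library. The fits were run on simulated data with fold changes set between genotypes only. Coordinates are from GENCODE M21 (mm10), whose gene IDs matched 54587 of 55335 with version. One gene is not reported here. The members and the gene lists were chosen with earlier results of these data known. Named genes beyond the members were, per list and comparison, up to 3 called genes with the largest fold change and a mean of at least 100 normalized counts, the 2 best-correlated genes per member under the same minimum, the chromosome 9 neighbours, Ctcf, Xist and Ddx3y.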

Additional observations from a re-analysis of the deposited data

Results flagged for a closer look

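The LPS response of 4 members differed between CTCF-depleted and WT cells by the interaction term of edgeR's quasi-likelihood fit. Over all genes tested, this term was called upwards in 8.70% and downwards in 8.75%. On the log2 scale the difference was -0.72 for Mmp13, -0.63 for Mmp14, 0.38 for Adam8 and -0.77 for Adam17. Mmp14 kept its call in every alternative run, whereas the calls of Mmp13, Adam8 and Adam17 were lost without some of the libraries named beside their values. Adam17 was at 4505 to 6695 normalized counts in KOL and at 4844 to 7213 in WTL, beside 4592 to 4824 in WT and 7318 to 7366 in KO.

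The same term flagged named genes of the other lists, beside the shares of all genes given above. In the MMP, ADAM and plasminogen activation lists it was 1.03 for Mmp25, 1.24 for Adam23, 1.12 for Adam19, 0.78 for Adam11 and 0.58 for Plau. For the inhibitors and the clearance receptor it was 1.08 for Serpinb2, 0.62 for Cst3 and -0.997 for Lrp1. Rhbdf2 and Furin had -0.88 and -0.55. Of the ADAM17 substrates, Ereg had 2.12, Cx3cl1 1.14 and Icam1 -0.96. The Adam11 call was lost with a replicate block and without WT replicate 2, WTL replicate 2, KO replicate 1, 2 or 3 or KOL replicate 1. Under limma on TPM the calls of Adam11, Lrp1 and Serpinb2 were lost with either pseudocount, and that of Ereg with a pseudocount of 1.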

How the results depend on the processing

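Counts of members called kept within 1.5 times of the reported ones in nearly all alternatives. Exceptions were KOL against KO without the fold threshold, with 9 members in place of 2 (67.5% of all genes), and the interaction, with 2 in place of 4 under limma on log2(TPM + 0.1). Leaving out 1 library gave 2 to 5 for the interaction (2 without WT replicate 1, 2 or 3), 2 to 3 for WTL against WT, 8 for KO against WT, 4 for KOL against WTL and 2 for KOL against KO. Same-numbered libraries did not deviate together (correlations of -0.286 to 0.112). Each deviation was taken from a mean of only 3 libraries, so this cannot settle whether the replicate numbers pair them. A fit with a replicate block called 3, 8, 4, 2 and 4 members in the order LPS in WT, KO against WT, KOL against WTL, LPS in KO, interaction.

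On the TPM scale the median gene moved by -0.44 (pseudocount 1) or -0.52 (0.1) for WTL against WT and by -0.38 or -0.45 for KOL against KO, and by -0.10 or -0.12 for KO against WT. The share of calls that were higher was then 28.1% or 23.4% in place of 55.8% for WTL against WT, 30.0% or 27.2% in place of 53.7% for KOL against KO, 38.1% or 37.1% in place of 50.2% for KO against WT, and 61.1% or 64.3% in place of 49.9% for the interaction. Signs reversed there (pseudocount 1, then 0.1) for LPS in WT in Mmp8 (-0.49 and -0.49), Mmp9 (-0.20 and -0.31), Mmp12 (-0.44 and -0.44), Adam8 (-0.34 and -0.34) and Adam17 (-0.22 and -0.22), for LPS in KO in Mmp9 (-0.12 and -0.18) and Mmp14 (-0.056 and -0.057), and for Mmp9 in KO against WT (-0.037 and -0.054) and the interaction (0.083 and 0.13). Mmp19 passed the fold threshold there for LPS (-1.19 and -1.21 in WT, -1.24 and -1.27 in KO), and Furin (0.53 and 0.54) and Rhbdf2 (0.82 and 0.83) in WTL against WT and Plau (0.63 and 0.64) in KOL against KO did not. Leaving out 1 library turned signs of differences that had not passed the test: ranges were -0.13 to 0.17 for Mmp8 and -0.023 to 0.17 for Mmp12 in WTL against WT, -0.21 to 0.082 for Mmp8, -0.12 to 0.17 for Mmp9 and -0.31 to 0.048 for Adam17 in KOL against WTL, and -0.25 to 0.037 for Mmp9 and -0.11 to 0.11 for Mmp19 in the interaction. The causes were not tested. Mmp9, at 39 to 77 counts a library, is the member whose depth limits precision most.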
